A study of Triticum aestivum with 20 samples.

Results

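The probe sets described here had a lower value in the cold than in the control at every anther stage, in both light regimes, in the temperature-sensitive genic male sterile (TGMS) wheat line BS366. They were chosen from the deposited log2 values by these same differences. Each of the 10 differences (cold minus control at 5 stages under 12 h and under 14 h of light) had to lie below 0, the mean of the 8 differences of the stages from 1.5 to 2.5 mm had to be at most -0.6, and at least 4 control arrays had to reach a log2 value of 8. Of 28894 probe sets, 673 had all 10 differences below 0, 369 of these also reached the level, and 236 also had a low enough mean. A further 3 were left out by gene name or ID (raftin1a, OEE2 and rbcL), because genes of these names were set apart in the rule. This left 233 members, 0.806% of all probe sets, from 176 transcript clusters (probe sets that share the first part of their ID). The opposite limits, all 10 differences above 0 and a mean of at least 0.6, were met by 158 probe sets.

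BS366 plants were vernalized in the field. They were then held for 5 d in the cold, at 10 °C with 12 h (A) or 14 h (B) of light, or as controls at 20 °C with 12 h (E) or 14 h (F) of light, and afterwards all plants grew at 20 °C with 12 h of light. Whole anthers of 1.5, 2.0, 2.2, 2.5 and 3.0 mm were each hybridised to 1 Affymetrix Wheat Genome array, so that each temperature and stage is represented by 2 arrays, 1 per light regime. No label names separate plants or cultures behind these 2 arrays, so every SD and p-value measures the spread between arrays only. Over the 20 arrays the median of all probe sets lay between 6.14 and 6.46, and no member was at the lowest value of the file on any array. Stage means anther length, so a slower development at a given length in the cold cannot be told apart from a lower level at the same developmental step.

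An anther holds the sporogenous cells that pass through meiosis to microspores and pollen, and around them the tapetum, a secretory layer that feeds the microspores and delivers material for the pollen wall before it breaks down. In a TGMS line, pollen forms normally at the permissive temperature and fails at the restrictive one, which is low temperature for BS366. The anther wall is also green for part of its development, and the anther as a whole is a strong sink for sugars imported from the leaf. Bread wheat carries several related genomes, so an array probe set may report the sum of near-identical gene copies.

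The members were moderately to highly expressed in control anthers and built up with anther length there. Their mean log2 value per array in the cold was 7.35, 7.95, 7.79, 7.76 and 8.60 in A and 7.36, 8.16, 8.09, 8.18 and 8.40 in B, in the order of the 5 lengths. In the control it was 8.35, 8.42, 9.61, 9.84 and 10.20 in E and 8.10, 8.81, 9.66, 10.17 and 10.16 in F. At 1.5 and 2.0 mm the cold and control arrays lay within about 1 log2 unit of each other, and from 2.2 mm the control arrays stood well above all cold arrays. As means of 2 arrays (± SD, n = 2) these were 7.36 ± 0.0042 in the cold and 8.22 ± 0.18 in the control at 1.5 mm, and 8.06 ± 0.15 in the cold and 8.62 ± 0.27 in the control at 2.0 mm. They were 7.94 ± 0.21 in the cold and 9.64 ± 0.04 in the control at 2.2 mm, 7.97 ± 0.30 in the cold and 10.01 ± 0.24 in the control at 2.5 mm, and 8.50 ± 0.14 in the cold and 10.18 ± 0.02 in the control at 3.0 mm. These gaps are what the choice of members fixed, and no test was made on them. In whole anthers, fewer cells of a type and less RNA per cell cannot be told apart.

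**Figure D1:**
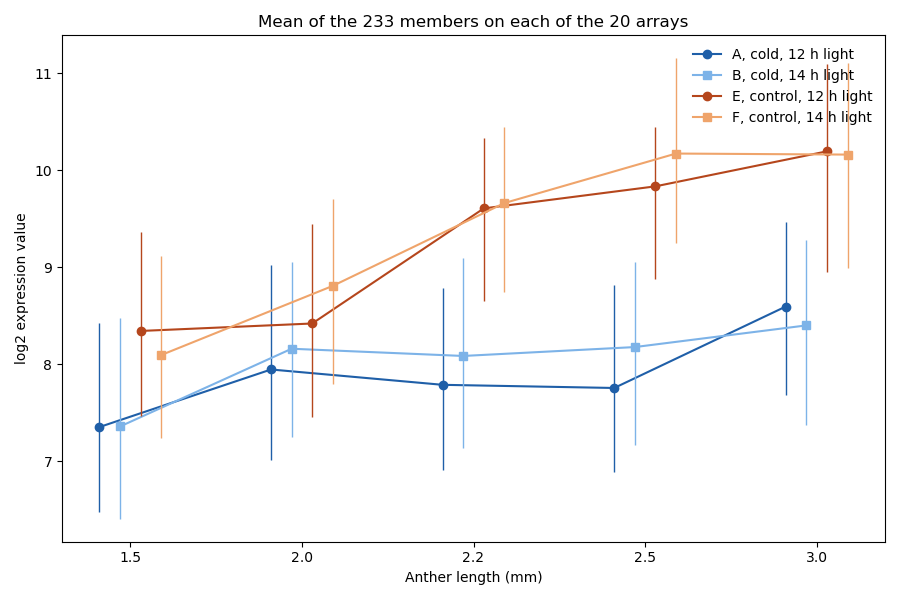
Mean log2 value of the 233 members on each array (points) with the quartiles over members (vertical lines), against anther length in mm, for the cold series A and B and the control series E and F. The cold series stay between 7.35 and 8.60, whereas the control series reach 10.20 in E and 10.17 in F.

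The size of the difference varied with stage. The median over members of cold minus control was -0.67, -0.44, -1.36, -1.73 and -1.26 from 1.5 to 3.0 mm, which corresponds to values 1.59, 1.36, 2.56, 3.31 and 2.40 times lower in the cold. Over all 13805 probe sets bright enough to be kept, the medians were 0.03, 0.00, 0.11, -0.05 and -0.0045. The difference was largest at 2.5 mm in 105 members, at 3.0 mm in 68 and at 2.2 mm in 56, but at 1.5 mm in 3 and at 2.0 mm in 1 only. At 2.0 mm the members therefore came closest to the control, and 134 of them differed there by less than 0.5 log2 units.

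Values at least 2-fold lower in A than in E and also in B than in F were found in 48 members (20.6%) at 1.5 mm, against 1.07% of all probe sets kept. The same count was 15 (6.44%) at 2.0 mm against 0.514%, 129 (55.4%) at 2.2 mm against 6.33%, 160 (68.7%) at 2.5 mm against 7.56%, and 124 (53.2%) at 3.0 mm against 10.3%. Since the rule used these differences, the shares describe the selection and nothing is read from them. In 9 members both pairs were 2-fold lower at all 5 stages, and in 205 members at one stage or more. Neither count was made over all probe sets kept, so nothing is read from them. The 10 cold arrays lay below all 10 control arrays whatever the stage in 30 members (12.9%), against 0.384% of all probe sets kept. In the other members, cold and control arrays of different lengths overlapped.

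Much of the pattern lay in the course between 2.0 and 2.2 mm. Between these lengths the median step of the members was -0.11 in the cold and 0.82 in the control. Both cold series went up in 34 members and both went down in 81, whereas both control series went up in 212 and both went down in 6. From 1.5 to 2.0 mm, in contrast, the median step was 0.55 in the cold and 0.33 in the control, and both cold series went up in 193 members. From 2.2 to 2.5 mm the median step was 0.00 in the cold and 0.33 in the control, and from 2.5 to 3.0 mm it was 0.37 in the cold and 0.12 in the control. The difference between the cold and control steps follows from the values that chose the members and was not tested.

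Over the whole course the median gain from 1.5 to 3.0 mm was 0.79 log2 units in the cold and 1.64 in the control. It reached 1 log2 unit in 98 members in the cold and in 163 in the control, and 2 members fell by that much in the cold. By the median over members, cold anthers of 3.0 mm were nearest to control anthers of 2.0 mm. Their median difference from control anthers was 0.20 at 1.5 mm, -0.11 at 2.0 mm, -0.97 at 2.2 mm, -1.38 at 2.5 mm and -1.26 at 3.0 mm. Cold anthers of 3.0 mm lay below the control mean in 89 members at 1.5 mm, 141 at 2.0 mm, 232 at 2.2 mm, and all 233 at 2.5 and 3.0 mm. The count at 3.0 mm was fixed by the rule, and the others use the values that chose the members. They were not counted over all probe sets kept, so no match of developmental stages is read from them.

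The members fell into groups by the stage of their highest control mean. This stage was 3.0 mm in 122 members, 2.5 mm in 87, 2.2 mm in 19, 2.0 mm in 2 and 1.5 mm in 3. In the cold the highest mean was at 3.0 mm in 153 members, at 2.0 mm in 44, at 2.2 mm in 21, at 1.5 mm in 8 and at 2.5 mm in 7. Members with a control peak at 2.5 mm had a median difference of -1.88 at that stage and of -0.84 at 3.0 mm. Those with a control peak at 3.0 mm had -1.70 at 2.5 mm and -2.09 at 3.0 mm. The gap between the 2 groups at 3.0 mm follows in part from grouping by the control level at that stage.

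**Figure D2:**
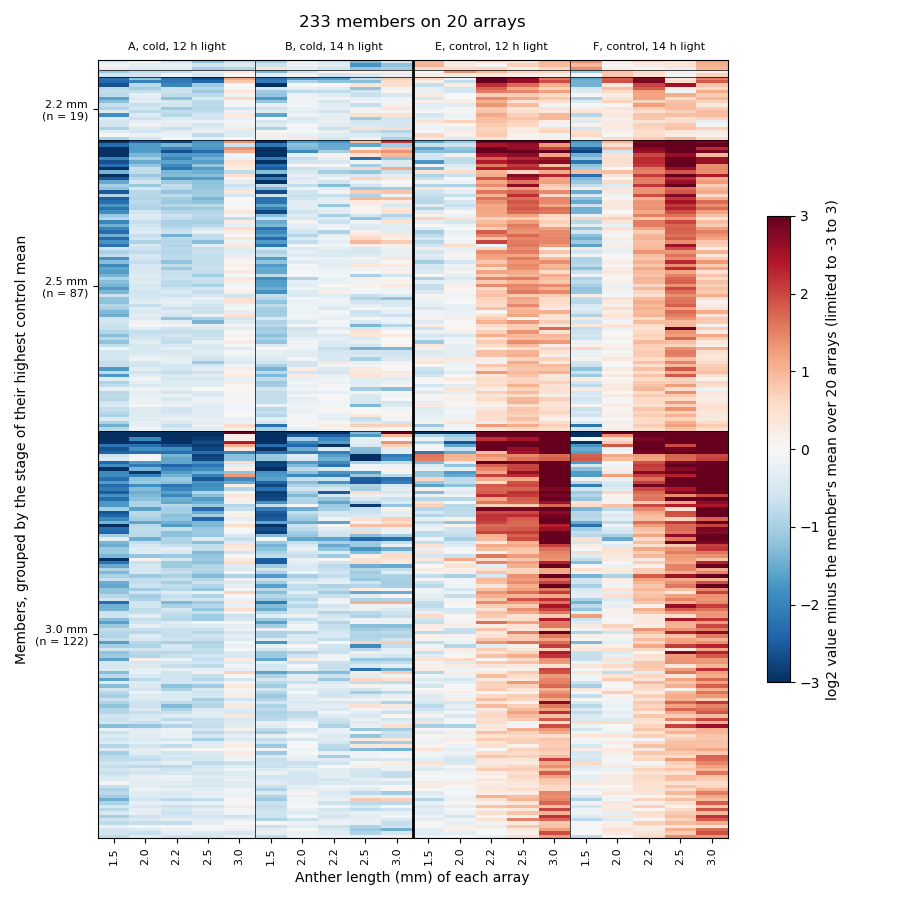
Log2 value of each of the 233 members (rows) on each of the 20 arrays (columns, cold A and B left of control E and F), minus the member's own mean, with rows grouped by the stage of the highest control mean. The 3 members with a peak at 1.5 mm and the 2 with a peak at 2.0 mm are the unlabelled rows at the top. Red fills the control columns from 2.2 mm on, and blue the cold columns, above all at 1.5 mm.

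Changes along anther length were tested as the mean of the cold and the control step, a measure that does not use cold minus control. The choice of members still bears on it, since a step in the control alone can enter this mean and the level condition was set on control arrays, so its shares are a description. A probe set was called with limma at a Benjamini-Hochberg adjusted p under 0.05 over all probe sets kept and a change of at least 2-fold. From 1.5 to 2.0 mm, 27 members (11.6%) rose, against 0.565% of all probe sets kept and 0.671% of the 9086 that met the same level condition. None fell, against 0.261% of all probe sets kept, and 3 members were lower at an unadjusted p under 0.05. Counts at an unadjusted p, here and below, have no share of all probe sets kept beside them, so nothing is read from them. The called members came from 17 transcript clusters, and their averaged steps lay between 1.0 and 1.99 log2 units. All 4 series went up in 25 of them, and the step reached 1 log2 unit in the cold in 26 and in the control in 16. This count depended on single arrays of 1.5 and 2.0 mm. It was 0 without the B or F array of either length, 1 without the A array of 1.5 mm, 2 without the A array and 13 without the E array of 2.0 mm, and 15 without either control array of 3.0 mm.

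The largest group of these risers belonged to 1 transcript cluster, Ta.5933, with 5 members on the list of 233 and all 5 called. Ta.5933.1.S1_at had 8.69, 10.10, 9.99, 10.08 and 10.63 in A and 9.10, 10.66, 10.18, 10.82 and 10.59 in B, against 9.84, 10.44, 10.80, 11.27 and 10.76 in E and 9.33, 10.70, 11.27, 12.28 and 10.91 in F. Its averaged step from 1.5 to 2.0 mm was 1.23 (SE 0.19, limma adjusted p = 0.0125). At 3.0 mm it was 1.17 times lower in the cold. Ta.9671.2.S1_at was alike, with 8.74 in A and 7.95 in B against 9.13 in E and 8.03 in F at 1.5 mm, and 9.97 in A and 10.20 in B against 10.08 in E and 10.28 in F at 2.0 mm. Its averaged step was 1.67 (SE 0.29, limma adjusted p = 0.0177). For both, the cold series gained on average at least as much as the control series between these lengths, and the cold deficit at 2.0 mm was small.

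From 2.0 to 2.2 mm, 2 members (0.858%) rose, against 0.587% of all probe sets kept, and none fell, against 0.0145%, with 2 members lower at an unadjusted p under 0.05. The share was near the background. The 2 members were Ta.28682.2.S1_x_at and TaAffx.87092.1.S1_at, the second of which is named because the count is small. The control step reached 1 log2 unit in both and the cold step in neither, and in neither did all 4 series go up. Their count was 0 without the A array of 2.2 mm, the E array of 2.0 mm or the B array of 2.0 mm, 1 without the A array and 5 without the F array of 2.0 mm, and 7 without either cold array of 2.5 mm. From 2.2 to 2.5 mm limma called no member and no other probe set, and 30 members were higher and 7 lower at an unadjusted p under 0.05. Without the E array of 2.5 mm, 6 members were called higher there.

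From 2.5 to 3.0 mm, 18 members (7.73%) rose, against 3.89% of all probe sets kept and 1.47% of those that met the level condition. No member fell by 2-fold with an adjusted p under 0.05, against 5.34% of all probe sets kept and 5.95% of those at the same level, while 10 members were lower at an unadjusted p under 0.05. Of the 18, from 16 clusters, 17 had a control step of at least 1 log2 unit and 10 had such a step in the cold, and all 4 series went up in 14. The count was 6 without the A array of 3.0 mm, 10 without the E array of 2.5 mm and 27 without the B array of 2.5 mm, and 1 member was then called lower without the E array of 2.5 mm. Only 1 member, Ta.1989.1.S1_a_at, was called in both the averaged step to 2.0 mm and that to 3.0 mm. Its step to 2.0 mm came from the cold series. Among members the median averaged step was 0.43, 0.35, 0.20 and 0.25 for the 4 steps in order, with 209, 209, 172 and 169 of the 233 above 0, where the medians of all probe sets kept were between -0.04 and 0.00.

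**Figure D3:**
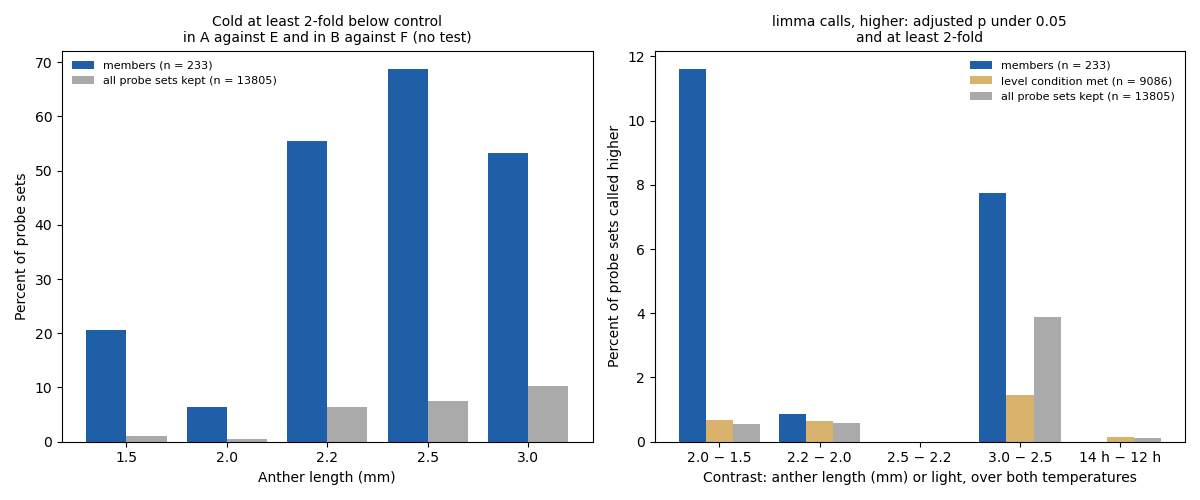
Left, percent of probe sets at least 2-fold lower in the cold in both light regimes, by anther length in mm, for the members and for all probe sets kept (no test). Right, percent called higher by limma for each step in anther length averaged over cold and control, and for 14 h against 12 h of light, for the members, the probe sets that met the level condition, and all probe sets kept. The members stand above the other bars at 2.0 minus 1.5 (11.6%) and 3.0 minus 2.5 (7.73%), close to them at 2.2 minus 2.0 (0.858%), and at 0 for light.

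No member passed the test for light. Averaged over both temperatures and all stages, limma called no member higher under 14 h than under 12 h, against 0.101% of all probe sets kept, and none lower, against 0.00724%. At an unadjusted p under 0.05, 31 members were higher and 9 lower. Both counts lack a share of all probe sets kept, so no trend with light is read from them. The median effect was 0.11, with 166 members above 0, where that of all probe sets kept was -0.04. Without either control array of 1.5 mm, 1 member was called higher. The largest effects were 1.01 (SE 0.30, limma adjusted p = 0.118) for Ta.8413.1.A1_at and -0.63 (SE 0.22, limma adjusted p = 0.159) for Ta.18955.1.S1_at, neither past the threshold. The median gap between the 2 arrays of a temperature and length lay between 0.21 and 0.53 log2 units. In control anthers of 2.0 mm the median over members of F minus E was 0.27. The median of all probe sets kept was 8.43 in F and 8.48 in E at that length. These comparisons of single arrays have no replicate.

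Only 14 members (6.01%, against 2.92% of all probe sets) had a gene in the array annotation. They stood for 11 genes, of which raftin1b, Pgk-1 and 1-FEHw2 had a name. Raftins are proteins of the BURP family that the tapetum secretes and that reach the developing pollen wall, and loss of raftin in rice leads to male sterility. The raftin1b probe set Ta.4091.1.S1_x_at had 7.70, 9.89, 9.02, 9.36 and 11.23 in A and 7.76, 10.06, 10.78, 11.60 and 11.62 in B, against 10.37, 10.83, 12.42, 12.41 and 13.02 in E and 8.48, 10.63, 11.97, 12.41 and 12.74 in F. The cold arrays stayed below their own controls at each length, but B from 2.2 mm on lay above the control anthers of 1.5 mm, so that the 2 temperatures overlapped over all stages. On average raftin1b was 3.23, 1.69, 4.92, 3.82 and 2.74 times lower in the cold from 1.5 to 3.0 mm.

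The second raftin1b probe set, Ta.4091.1.S1_s_at, was among the brightest members, with 9.77 to 12.36 in A and 9.96 to 13.10 in B, against 11.34 to 13.69 in E and 10.64 to 13.47 in F. Its difference was smaller, on average 1.43 times lower in the cold at 2.0 mm and 3.37 times at 2.2 mm. At 2.5 mm it had 11.0 in A against 13.33 in E, but 13.10 in B against 13.18 in F. The deficit under 14 h of light was thus slight there. At 3.0 mm A minus E was -1.33 and B minus F was -0.38. The 2 raftin1b probe sets had nearly the same profile (r = 0.99 over 20 arrays). Averaged over both temperatures, raftin1b gained 1.78 log2 units from 1.5 to 2.0 mm on the first probe set (SE 0.49, limma adjusted p = 0.0882) and 1.34 on the second (SE 0.39, limma adjusted p = 0.102), neither past the threshold. At 2.2 and 2.5 mm the A array was the lower of the 2 cold arrays on both probe sets.

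Pgk-1 encodes phosphoglycerate kinase, which makes ATP in glycolysis and, in chloroplasts, works in the reverse direction in carbon fixation. Ta.2307.1.S1_at had 9.19, 9.94, 9.22, 9.89 and 10.64 in A and 8.97, 9.76, 10.33, 11.05 and 10.95 in B, against 9.86, 10.47, 12.09, 12.34 and 12.03 in E and 9.41, 10.56, 11.64, 12.25 and 11.95 in F. From 2.2 mm on, all 6 cold arrays were below all 6 control arrays, by 4.26, 3.55 and 2.29 times on average at 2.2, 2.5 and 3.0 mm. Its averaged step from 1.5 to 2.0 mm was 0.82 (SE 0.26, limma adjusted p = 0.123).

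1-FEHw2 encodes a fructan 1-exohydrolase, an enzyme that releases fructose from fructan, a storage carbohydrate of wheat stems and leaves. Ta.199.1.S1_at had 8.72, 9.64, 9.53, 9.21 and 10.02 in A and 8.82, 9.83, 9.46, 9.90 and 9.89 in B, against 10.12, 10.16, 11.06, 10.42 and 10.48 in E and 9.57, 10.65, 10.66, 10.83 and 10.66 in F. From 1.5 to 3.0 mm the probe set gained 1.18 log2 units in the cold and 0.73 in the control. The gene was already 2.11 times lower in the cold at 1.5 mm, 2.58 times at 2.2 mm and 1.53 times at 3.0 mm. Its averaged gain from 1.5 to 2.0 mm, 0.77 (SE 0.18), came close to the threshold (limma adjusted p = 0.0538).

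**Figure D4:**
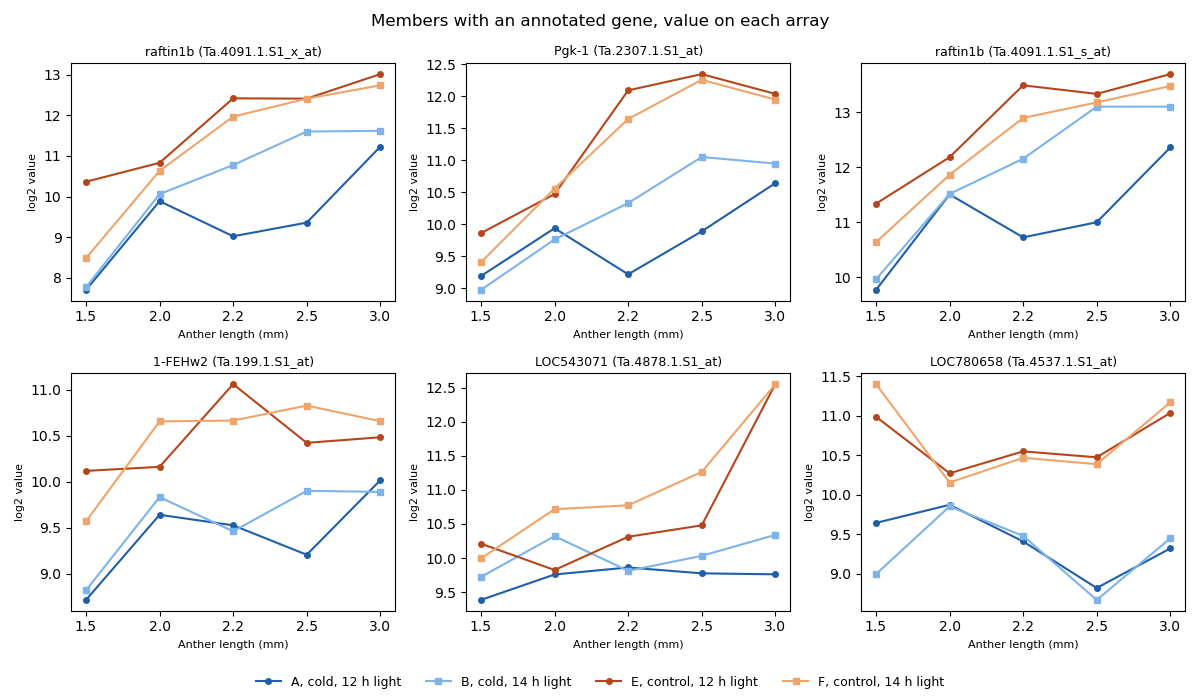
Log2 value on each array against anther length in mm for 6 probe sets of annotated members, in the cold series A and B and the control series E and F. Both raftin1b probe sets and Pgk-1 climb in the control and lag in the cold, above all in A at 2.2 and 2.5 mm. On average LOC780658 ends near its level of 1.5 mm at both temperatures, and LOC543071 climbs to 12.55 in both control series at 3.0 mm.

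The other 8 annotated genes have a locus name only. LOC780658 (Ta.4537.1.S1_at) was the annotated gene whose temperatures were fully apart, with 9.64, 9.87, 9.41, 8.82 and 9.32 in A and 8.99, 9.85, 9.48, 8.67 and 9.45 in B, against 10.99, 10.27, 10.55, 10.47 and 11.03 in E and 11.40, 10.15, 10.47, 10.38 and 11.17 in F. From 1.5 to 3.0 mm its mean changed by 0.07 log2 units in the cold and by -0.09 in the control. Its averaged step from 2.5 to 3.0 mm was 0.66 (SE 0.14, limma adjusted p = 0.00481), under the 2-fold limit. It was 3.67, 1.28, 2.09, 3.22 and 3.29 times lower in the cold from 1.5 to 3.0 mm. LOC100037560 (Ta.3976.1.S1_at) had the largest deficit of the annotated genes. Its values were 3.29, 4.08, 4.03, 3.15 and 6.24 in A and 2.29, 4.43, 5.46, 4.62 and 5.59 in B, against 5.92, 5.29, 8.93, 8.54 and 9.56 in E and 4.43, 5.72, 8.90, 8.77 and 8.93 in F. It was one of the 9 members at least 2-fold lower in both pairs at all 5 stages. At 1.5 and 2.0 mm, however, its cold and control values all lay below the median of all probe sets on each array (6.14 to 6.46). Its cold values lay below that median at 2.2, 2.5 and 3.0 mm too. The size of the difference therefore rests on dim cold values at every length.

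LOC543071 (Ta.4878.1.S1_at) was on average 1.46, 1.17, 1.63 and 1.96 times lower in the cold at 1.5, 2.0, 2.2 and 2.5 mm. The difference was largest at 3.0 mm, where it had 9.76 in A and 10.34 in B against 12.55 in both E and F, 5.65 times lower in the cold. Its averaged step from 2.5 to 3.0 mm was 0.91 (SE 0.17, limma adjusted p = 0.00233), under the 2-fold limit. LOC732707 was represented by Ta.27660.1.S1_at and Ta.27660.1.S1_x_at, which both rose from 1.5 to 2.0 mm, by 1.37 (SE 0.26, limma adjusted p = 0.0252) and 1.32 (SE 0.21, limma adjusted p = 0.0125). At 2.5 mm the first had 9.42 in A and 10.95 in B against 12.52 in E and 13.13 in F, and was 6.23 times lower in the cold. The remaining loci, LOC543359, LOC543167 (with 2 probe sets), LOC542869 and LOC543405, had means of the 8 differences between -1.76 and -0.63.

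A few members were near the bottom of the scale in the cold and bright in the control. Ta.1725.1.S1_at, with the lowest mean of the 8 differences (-5.71), had 2.50, 2.50, 2.50, 2.47 and 11.14 in A and 2.50, 2.50, 2.50, 5.59 and 10.55 in B, against 2.74, 3.20, 12.62, 12.44 and 12.96 in E and 2.52, 10.89, 12.37, 11.99 and 12.55 in F. The lowest value of the file is 2.28, so no fold is given for this probe set. It was bright in the control from 2.0 mm under 14 h and from 2.2 mm under 12 h of light, and in the cold at 3.0 mm in both series. It was called as rising from 2.5 to 3.0 mm (limma adjusted p = 0.0386), but the size of that step rests on cold values at the bottom of the scale and is not given.

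TaAffx.70216.1.S1_s_at had 2.34, 2.94, 2.34, 2.48 and 6.54 in A and 2.50, 3.82, 3.90, 4.63 and 7.34 in B, against 5.39, 5.22, 9.34, 9.80 and 12.81 in E and 2.66, 7.72, 10.24, 11.91 and 13.02 in F. It also came on late in the cold but still differed from the control by -5.97 log2 units at 3.0 mm. Its averaged step from 2.5 to 3.0 mm was 2.72 (SE 0.65, limma adjusted p = 0.0103), a size that rests in part on the low value of A at 2.5 mm. Ta.1989.1.S1_a_at was low in the cold already at 1.5 mm, with 2.89 in A and 3.77 in B against 8.0 in E and 8.09 in F. At 3.0 mm it had 8.30 in A and 8.15 in B against 12.87 in both E and F, and it was 24.9 times lower in the cold there. Its averaged first and last steps were 1.63 (SE 0.37, limma adjusted p = 0.0467) and 1.59 (SE 0.37, limma adjusted p = 0.00841). The first came from the cold series, whose mean went from 3.33 to 6.68, while the control mean went from 8.05 to 7.96. Its size rests in part on the low cold values at 1.5 mm.

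Ta.28320.1.S1_s_at, Ta.25330.1.A1_at and Ta.21105.1.S1_at complete the 6 members with the lowest means, at -3.84, -3.46 and -3.40. At 2.2 mm Ta.28320.1.S1_s_at had 5.27 in A and 6.91 in B against 11.65 in E and 12.56 in F. At 3.0 mm it had 10.96 in A and 9.89 in B against 13.55 in both E and F. Cold minus control was -3.12, -2.40 and -1.23 log2 units in these 3 at 3.0 mm, against -6.02, -5.80 and -5.26 at 2.2 mm. The A values of all 3 at 2.2 mm lay below the median of all probe sets on that array (6.38). In Ta.25330.1.A1_at the cold values there, 3.13 in A and 2.73 in B, were near the lowest value of the file (2.28). The size of these differences at 2.2 mm therefore rests in part on dim values. No gene is annotated for any of the 6.

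**Figure D5:**
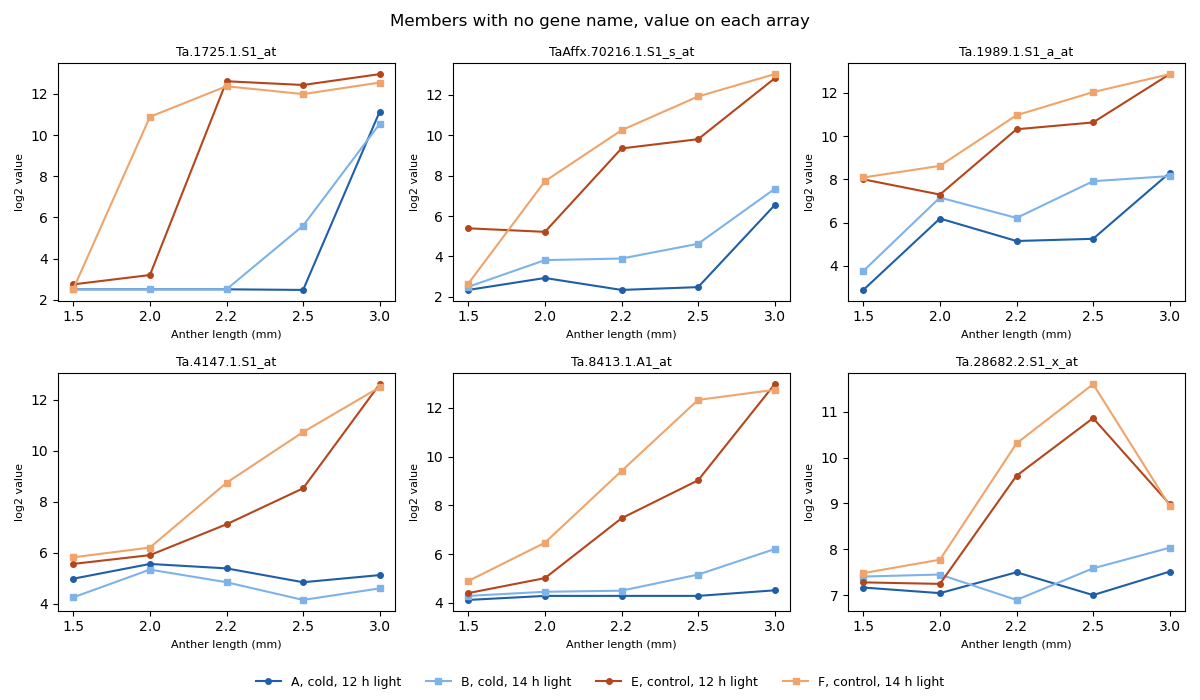
Log2 value on each array against anther length in mm for 6 members with no gene name in the array annotation, in the cold series A and B and the control series E and F. Ta.1725.1.S1_at reaches 11.14 in A and 10.55 in B only at 3.0 mm, Ta.8413.1.A1_at and Ta.4147.1.S1_at stay low in the cold throughout, and Ta.28682.2.S1_x_at has a control peak at 2.5 mm with a nearly flat course in the cold.

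Other members parted from the control most at 3.0 mm, a stage whose size of difference the rule did not use beyond its sign. Ta.4147.1.S1_at had 4.98, 5.56, 5.39, 4.84 and 5.12 in A and 4.25, 5.34, 4.84, 4.15 and 4.60 in B, against 5.56, 5.91, 7.12, 8.53 and 12.62 in E and 5.82, 6.20, 8.74, 10.74 and 12.49 in F. The cold arrays stayed flat, and the difference at 3.0 mm was -7.70 log2 units. All cold arrays lay below all control arrays, but barely, with a highest cold value of 5.559 and a lowest control value of 5.561. Since the cold values lay below the median of all probe sets on each array (6.14 to 6.46), no fold is given. Its averaged step from 2.5 to 3.0 mm of 1.65 (SE 0.44, limma adjusted p = 0.0208) came from the control series. Ta.8413.1.A1_at had 4.12, 4.29, 4.29, 4.29 and 4.51 in A and 4.29, 4.45, 4.50, 5.16 and 6.21 in B, against 4.40, 5.02, 7.47, 9.03 and 12.98 in E and 4.90, 6.47, 9.41, 12.33 and 12.74 in F. Its control arrays under 14 h of light were above those under 12 h up to 2.5 mm, and the cold arrays under 14 h stayed below 7 at all lengths.

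Ta.1151.1.S1_at, Ta.13821.1.S1_at and TaAffx.52616.1.S1_at also differed most at 3.0 mm, by -6.90, -5.82 and -5.68 log2 units. At that stage Ta.1151.1.S1_at had 4.71 in A and 4.40 in B against 11.36 in E and 11.55 in F, and rose by 1.47 in the averaged step from 2.5 mm (SE 0.34, limma adjusted p = 0.0089). Both of these cold values lay below the median of all probe sets on their array. So did TaAffx.52616.1.S1_at in A (5.16) and Ta.13821.1.S1_at in B (5.42), so these sizes rest in part on dim values. At 1.5 mm the difference of these 5 members was smaller, at -2.31 log2 units for Ta.1151.1.S1_at, -1.08 for Ta.4147.1.S1_at and between -0.45 and -0.35 for the others.

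A contrasting set was near the control at 3.0 mm. TaAffx.113540.1.S1_at had 8.34 in A and 8.58 in B against 8.35 in E and 8.71 in F there, although at 2.2 mm it had 7.88 in A and 8.10 in B against 9.76 in E and 9.68 in F. Ta.7856.1.S1_at, Ta.9671.2.S1_at, Ta.16985.3.S1_a_at, Ta.5933.1.S1_at and TaAffx.128414.219.S1_x_at also differed by no more than 1.17 times at 3.0 mm, against 1.40 to 2.50 times at 2.5 mm. In these members the cold arrays were at or near their highest value at 3.0 mm. The control mean also fell from 2.5 to 3.0 mm in all of them except TaAffx.128414.219.S1_x_at. In TaAffx.113540.1.S1_at it went from 9.35 to 8.53, while the cold mean went from 7.66 to 8.46. In Ta.5933.1.S1_at the control mean went from 11.77 to 10.83 and the cold mean from 10.45 to 10.61.

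The last step was most negative in Ta.28682, a cluster of 2 member probe sets with a control peak at 2.5 mm. Ta.28682.2.S1_x_at had 7.16, 7.04, 7.50, 7.0 and 7.51 in A and 7.40, 7.45, 6.89, 7.58 and 8.03 in B, against 7.28, 7.24, 9.60, 10.86 and 8.98 in E and 7.48, 7.77, 10.31, 11.60 and 8.95 in F. The cold arrays stayed near the level of control anthers of 1.5 and 2.0 mm, and at 2.5 mm the probe set was 15.4 times lower in the cold. Its averaged step from 2.0 to 2.2 mm was 1.20 (SE 0.20, limma adjusted p = 0.0133) and came from the control series. Its step from 2.5 to 3.0 mm was -0.89 (SE 0.20, limma adjusted p = 0.00627), under the 2-fold limit. Ta.13694.1.S1_a_at (-0.69) and Ta.17050.1.S1_a_at (-0.57) also had a last step below 0 with limma adjusted p = 0.00123 and 0.0235, again under 2-fold.

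Most of the brightest members had small differences. Ta.506.1.S1_a_at, the member nearest to the limit at a mean of -0.60, had 11.96, 12.70, 12.37, 12.48 and 13.05 in A and 11.81, 12.58, 12.72, 12.92 and 12.88 in B, against 12.49, 12.80, 13.30, 13.47 and 13.33 in E and 12.31, 12.97, 13.35, 13.68 and 13.30 in F. It was 1.18 times lower in the cold at 2.0 mm and 1.83 times at 2.5 mm. Ta.2752.3.S1_x_at was as bright in the control, up to 14.11 in F at 2.5 mm, but 4.28 times lower in the cold at 2.2 mm. Over all members the mean over 10 control arrays lay between 7.20 and 13.10 with a median of 9.04, and the median of the mean over 10 cold arrays was 7.87. In 68 members no cold array reached a log2 value of 8, and in 74 all 10 did.

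The members varied together, as their choice made likely. The correlation of a member with the mean of all 233 over the 20 arrays had a median of 0.89 and ranged from 0.29 to 0.98, with 197 members at 0.8 or more and 2 under 0.5. The arrays share temperature and stage, so the values describe the profiles only. The mean of the 8 differences had a median of -1.05 and was at most -1 in 124 members, at most -2 in 37 and at most -3 in 8. Members just inside the limit were Ta.3949.3.S1_at (-0.61), Ta.1865.1.S1_at (-0.61) and Ta.506.1.S1_a_at (-0.60), and probe sets just outside were TaAffx.26068.1.S1_at (-0.60), Ta.3911.1.S1_a_at (-0.59) and Ta.14417.1.S1_at (-0.58). A further 190 probe sets met all the limits except that 9 of the 10 differences were below 0. The exception was A at 2.0 mm in 53 and B at 1.5 mm in 48 of these, and never A at 2.5 mm.

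Probe sets outside the members with the most similar profile were Ta.23833.2.S1_x_at (r = 0.98 with the members' mean over 20 arrays), which missed 1 of the 10 signs, and TaAffx.119943.1.A1_at, TaAffx.114380.1.S1_at and TaAffx.18713.1.S1_s_at (r = 0.97 each), which had too few control arrays at the level. Ta.274.1.S1_at (LOC100037524, r = 0.97) had all 10 differences below 0 but a mean of -0.50 only.

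Of the 176 transcript clusters, 38 held several members, 95 in all. These repeats are not independent, since probe sets of a cluster can report the same transcript. Within each such cluster the lowest correlation between members was 0.8 or more, with a median of 0.97. The same clusters held 105 other probe sets that were kept but were not members. Of these, 94 had a mean of the 8 differences below 0, against 47.0% of all probe sets kept, and 21 had all 10 differences below 0, against 3.70%. The median of their means was -0.59, against 0.02. By Affymetrix naming, 59 members ended in _x_at and 17 in _s_at, suffixes for probe sets whose probes can match more than one transcript, so the values of near-identical copies may be mixed there.

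Markers of the cells an anther may hold were compared over the same arrays. The photosynthetic tissue list had 9 probe sets kept, all left out of the members by name or by the limits, and 9 of 9 had a mean of the 8 differences below 0. Their mean level per array lay between 8.97 and 10.67 in the cold and between 9.45 and 11.69 in the control. The tapetum list was raftin alone, with 4 probe sets kept, 2 of them members, at 9.26 to 12.62 in the cold and 10.05 to 13.52 in the control. The late pollen list was a profilin with 2 probe sets, which did not follow the members, at 11.62 to 12.05 in the cold and 11.82 to 12.17 in the control. Histone H2A, with 8 probe sets kept and none with a mean below 0, went the other way, at 11.84 to 12.75 in the cold and 8.87 to 12.65 in the control. The transport list had 3 probe sets kept and no member, at 9.82 to 10.51 in the cold and 9.91 to 11.28 in the control, and the other lists had no probe set kept. The part of a changed share of green or tapetal tissue in the members' differences was not tested. The members TaAffx.128414.176.S1_x_at and TaAffx.128414.219.S1_x_at share their cluster with probe sets annotated as rbcL but have no gene in the annotation.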

How the data were processed

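The authors deposited log2 expression values for 20 Affymetrix Wheat Genome arrays, 1 column per array. MAS5 is the tool named in the labels. Its version, settings and scaling are not given in the sources used. A single reporter control was dropped, and in 11 members 3 or more arrays held equal values. The filter on dim probe sets asked for a value over the 60th percentile on both arrays of any temperature and length, which 13805 of 28894 probe sets passed, all 233 members included. Values were not scaled further.

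The members, gene lists and tests were chosen with earlier results of these data known. Cold against control was described only, because it chose the members. Stage steps averaged over cold and control, and 14 h against 12 h of light, were tested on all 20 arrays by limma (version 3.58.1, R 4.3.3), with a mean for each temperature and stage, a common light term, 9 residual degrees of freedom and a variance trend. The script was tested on simulated data. The number of arrays limits the precision, and no batch is given in the labels.

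Genes came from the platform annotation (845 probe sets, 844 matched to the RefSeq gene table of Chinese Spring v2.1), which names few genes. Of 18 lists of words and symbols, 5 had probe sets kept and 12 matched none. Named members were all annotated ones, the extremes of level, difference, last step and light effect, and those nearest the limits. Alternatives were quantile normalization, stricter limits, no filter, no trend, other light terms and leaving out each array. Sequences were not used here.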

Additional observations from a re-analysis of the deposited data

Results flagged for a closer look

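In 10 of the 47 named members, both cold series went up and both control series went down from 2.5 to 3.0 mm. The difference between the 2 courses was not tested, and its direction follows in part from members whose control peak lay at 2.5 mm. Over all members, opposite courses of either direction were seen in 45. Named members include those chosen for a large last step or for a difference near 0 at 3.0 mm. Such courses were not counted over all probe sets kept, so nothing is read from either count. The cold step minus the control step was 2.75 log2 units for Ta.28682.2.S1_x_at, 2.50 for Ta.28682.1.S1_x_at, 2.38 for Ta.21105.1.S1_at, 1.98 for Ta.13694.1.S1_a_at, 1.63 for TaAffx.113540.1.S1_at and 1.26 for Ta.2752.3.S1_x_at. It was 1.19 for Ta.7856.1.S1_at, 1.09 for Ta.27660.1.S1_x_at, 0.91 for Ta.16985.3.S1_a_at and 0.74 for Ta.2999.1.S1_at. In Ta.28682.2.S1_x_at the step was 0.51 in A and 0.45 in B, against -1.88 in E and -2.66 in F. In Ta.21105.1.S1_at it was 3.11 in A and 1.25 in B, against -0.05 in E and -0.35 in F, so that the cold gain made up most of the difference there.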

How the results depend on the processing

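With quantile normalization 216 probe sets met the rule, 206 of them shared with the 233, and the median difference at 2.5 mm was -1.61. A limit of -0.8 left 171 and a level of 9 left 159, and without a limit on number there were 233. Leaving out each array in turn gave 208 to 310 members (no more than 300 under the rule's limit on number, which was reached without the A or E array of 2.0 mm and the B or F array of 1.5 mm; lifting it there was chosen after seeing the data) and medians of -0.82 to -0.58, -0.46 to -0.41, -1.43 to -1.21, -1.75 to -1.64 and -1.35 to -1.29 from 1.5 to 3.0 mm. Members rising from 1.5 to 2.0 mm numbered 15 when dim probe sets were not filtered out, while 1 member fell with quantile normalization and 1 with a light term for each temperature. Leaving out each array gave 0 to 38 risers and 0 to 1 fallers in that step, 0 to 7 risers from 2.0 to 2.2 mm, 0 to 6 from 2.2 to 2.5 mm, 6 to 27 risers and 0 to 1 fallers from 2.5 to 3.0 mm, and 0 to 1 member higher under 14 h of light. The cause of these changes was not tested, but each such fit has fewer arrays. Of 301 comparisons with an alternative, 268 kept their count within 1.5 times, or their median within the spread between arrays, and 33 moved by more. Many of the 268 compare a count of 0 with 0. Leaving out either array of a pair also gives the same median, which is then counted again. The share of 268 is therefore no measure of how stable the other counts are. The light regime pairs A with E and B with F at each length, and the fit holds light as a term. Without it 18 members rose from 1.5 to 2.0 mm, 2 from 2.0 to 2.2 mm and 16 from 2.5 to 3.0 mm. Probe sets of dim genes, and members with tied values, have a spread that may be understated.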
